A study of Mus musculus with 12 samples.

Results

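The 10 genes described here, Cx3cr1, P2ry12, P2ry13, Tmem119, Siglech, Sall1, Gpr34, Fcrls, Olfml3 and Csf1r, are signature genes of homeostatic microglia, the resident macrophages of the healthy brain. They were taken by name from a list of established markers, and all 10 were found among 21135 genes of the deposited RNA-seq table. A gene is called near zero below where its level was under 1 FPKM (fragments per kilobase of transcript, scaled to the mapped fragments of a library) in all 6 separate profiles, and kept where it reached 1 FPKM in at least 3. By that rule 6 genes were near zero (P2ry12, Cx3cr1, Olfml3, Siglech, Fcrls and Sall1) and 4 were kept (Csf1r, Gpr34, Tmem119 and P2ry13). Of all 21135 genes, 48.7% were under 1 FPKM in all 6 profiles.

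The samples were labelled as primary microglia of mouse midbrain, sorted by flow cytometry. WT mice had the genotype Ppargc1a FF, and KO mice the genotype Ppargc1a FF CreER, which removes the metabolic coactivator gene Ppargc1a. All groups, WT included, were taken 6 weeks after tamoxifen, the drug that activates CreER. Mice of each genotype received PBS or MPTP, a toxin of dopaminergic neurons, which gives WT PBS, WT MPTP, KO PBS and KO MPTP, with 3 samples labelled in each. The sources used here do not give the promoter driving CreER, the age of the mice, the MPTP dose or whether a sample is 1 animal or a pool. A p-value below therefore rests on differences among profiles that could be technical replicates.

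The table did not hold 12 separate measurements. WT MPTP 2 was WT MPTP 1 multiplied by 1.02, and KO MPTP 1 was KO PBS 2 multiplied by 1.02. In each group, column 3 came from averaging the other two columns, multiplying by 0.99 and adding 0.1. All 20 rows of the 10 genes followed these relations to rounding, as did the rest of the table except rows of 42 other genes. Separate profiles were thus left for 3 WT columns (WT PBS 1, WT PBS 2 and WT MPTP 1) and 3 KO columns (KO PBS 1, KO PBS 2 and KO MPTP 2). Since KO PBS 2 appears under both KO treatments, its treatment is unknown, whereas its genotype label is KO either way. The 6 profiles summed to between 388861 and 425554 FPKM, their lowest correlation was 0.9985 on the log2 scale, and read depth is unknown. Ppargc1a was between 2.72 and 6.21 FPKM in WT profiles and between 0.12 and 0.42 FPKM in KO profiles.

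As background, homeostatic microglia survey the brain through a set of surface receptors that few other cells carry together. Colony-stimulating factor 1 receptor, encoded by Csf1r, is needed for the survival of microglia and of most other macrophages, whereas P2ry12, Tmem119, Siglech, Fcrls and Sall1 are used to tell microglia from other macrophages. Transforming growth factor beta from the surrounding tissue maintains the microglial set, and its members are known to fall in activated microglia and in culture.

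P2ry12 and P2ry13 are related purinergic receptor genes that neighbour each other, and 1 was near zero while the other was kept. For that reason the 250 bases before the start of each are shown, from RefSeq on GRCm38.p6, both on the minus strand, 5′ to 3′ (P2ry13 at chr3:59210883-59211132 and P2ry12 at chr3:59262986-59263235). The authors' build was mm9, and these coordinates were joined to no value of theirs. Capitals mark the PU box GAGGAA, a core sequence bound by the macrophage factor PU.1, searched on both strands.
P2ry13: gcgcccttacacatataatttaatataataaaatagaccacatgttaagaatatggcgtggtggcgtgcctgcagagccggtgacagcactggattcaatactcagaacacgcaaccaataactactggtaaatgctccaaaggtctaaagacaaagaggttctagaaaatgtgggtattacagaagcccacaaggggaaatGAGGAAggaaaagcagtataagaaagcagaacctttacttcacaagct
P2ry12: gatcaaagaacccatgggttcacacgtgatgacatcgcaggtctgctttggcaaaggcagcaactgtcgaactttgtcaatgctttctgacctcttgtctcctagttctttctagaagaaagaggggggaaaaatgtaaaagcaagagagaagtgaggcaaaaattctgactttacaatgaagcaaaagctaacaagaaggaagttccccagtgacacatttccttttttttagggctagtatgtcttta
The PU box stood once in the P2ry13 window and in none of the letters of the P2ry12 window. Promoter windows were found for 7 of the 10 genes, 9 windows in all, and 2 held the box, those of P2ry13 and Fcrls. Of 32851 such windows in the table, 23.3% held it. A match here describes the letters only, and Fcrls, which held it, was near zero.

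Csf1r was the one gene of the set at a high level. It was 120.11 and 118.76 FPKM in WT PBS 1 and 2, 121.06 in WT MPTP 1, 112.25 in KO PBS 1, 110.13 in KO PBS 2 and 121.37 in KO MPTP 2. The mean was 117 ± 4.85 FPKM (SD, n = 6 profiles), at percentile 97.8 of all genes. KO PBS 1 and KO PBS 2 were the lowest, and KO MPTP 2 was the highest, so WT and KO profiles overlapped. Csf1r made up between 93.4% and 94.4% of the summed level of the 10 genes in each profile, and its first row carried 96.6% of its own level.

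Gpr34, which encodes a receptor for lysophosphatidylserine, came next. It was 5.08 FPKM in WT PBS 1, 3.71 in WT PBS 2, 3.61 in WT MPTP 1, 3.55 in KO PBS 1, 3.50 in KO PBS 2 and 3.69 in KO MPTP 2. WT PBS 1 stood above the other 5 profiles, which lay close together, and the ratio within the WT PBS pair was 1.37. Gpr34 lies inside Cask, a gene on the opposite strand that was at 4.30 FPKM on average. Cask was also highest in WT PBS 1, at 4.88 FPKM, but lowest in WT PBS 2, at 3.79 FPKM. Strand use in counting is not given in the sources used here, and exons of the 2 genes were not compared. Whether reads of Cask were counted for Gpr34 was not tested.

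Tmem119, a transmembrane protein gene used as a microglial marker, was 1.92 and 1.97 FPKM in WT PBS 1 and 2, 2.28 in WT MPTP 1, 1.85 in KO PBS 1, 1.99 in KO PBS 2 and 2.09 in KO MPTP 2. Its mean was 2.02 ± 0.151 FPKM (SD, n = 6 profiles), at percentile 54.4. WT MPTP 1 was the highest and KO PBS 1 the lowest.

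P2ry13, a receptor gene for adenosine diphosphate, was just above the limit. It was 1.19 and 1.03 FPKM in WT PBS 1 and 2, 1.37 in WT MPTP 1, 0.99 in KO PBS 1, 1.04 in KO PBS 2 and 1.25 in KO MPTP 2. WT MPTP 1 and KO MPTP 2 were the highest, and KO PBS 1 lay below 1 FPKM. KO PBS 2, whose treatment is unknown, lay below WT PBS 1. P2ry13 and P2ry12 both lie inside Med12l, which is on the opposite strand. The mean of Med12l was 1.31 FPKM, beside 1.145 for P2ry13 and 0.19 for P2ry12. Csf1r and Cx3cr1 also overlap other genes, among them Hmgxb3 at 6.61 FPKM and Wdr48 at 9.42 FPKM. Whether reads were shared was not tested for any of these genes.

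P2ry12, the adenosine diphosphate receptor gene that guides microglial processes to injury, was near zero. It was 0.16 and 0.19 FPKM in WT PBS 1 and 2, 0.20 in WT MPTP 1, 0.19 in KO PBS 1, 0.15 in KO PBS 2 and 0.26 in KO MPTP 2. Its highest profile did not reach the lowest of P2ry13. The mean of Csf1r was 612 times that of P2ry12.

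Cx3cr1, the fractalkine receptor gene by which microglia respond to neurons, was 0.06 FPKM in both WT PBS profiles, 0.04 in KO MPTP 2 and 0.05 in the other 3 profiles. The mean of Csf1r was 2270 times that of Cx3cr1. Olfml3, which encodes a secreted olfactomedin-like protein, lay in the same range. Its WT profiles were 0.04, 0.07 and 0.03 FPKM (WT PBS 1, WT PBS 2 and WT MPTP 1), and of the KO profiles KO PBS 1 was 0.04 and the other 2 were 0.05 FPKM.

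Siglech, a sialic acid-binding lectin gene, was 0.03 and 0.01 FPKM in WT PBS 1 and 2, 0.03 in WT MPTP 1, 0.02 in KO PBS 1, 0.01 in KO PBS 2 and 0.05 in KO MPTP 2. Fcrls, an Fc receptor-like scavenger receptor gene, was listed at 0 in WT PBS 2 and at 0.01 FPKM in the other 5 profiles. Sall1, the transcription factor gene that sets microglial identity, was listed at 0 in all 6. These 3 genes lay within a few steps of 0.01 FPKM, the smallest step of the deposited values, so their order has no weight. Row numbers of Siglech, Fcrls and Olfml3 have gaps, as do those of 5263 of the 21135 genes. The missing numbers were not among the deposited rows read here, so the levels of these 3 genes may be too low.

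In order of level, Csf1r, Gpr34, Tmem119, P2ry13, P2ry12 and Cx3cr1 each stood above the next in all 6 profiles with no overlap of ranges. Cx3cr1 and Olfml3 overlapped, with Cx3cr1 higher in 3 profiles and tied in 1. Olfml3, Siglech, Fcrls and Sall1 also overlapped with their neighbours. Within genes, the SD was 4.14% of the mean for Csf1r, 7.51% for Tmem119, 13.1% for P2ry13 and 15.7% for Gpr34.

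**Figure D1:**
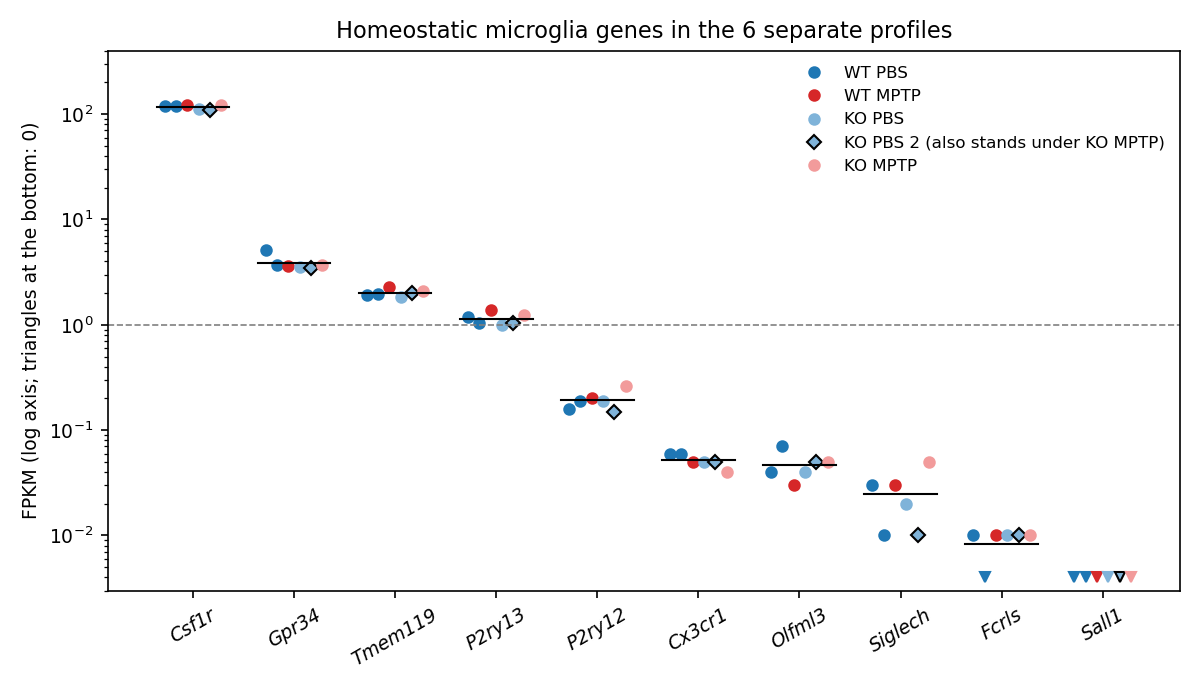
Level of each gene in FPKM (log axis) in the 6 separate profiles, coloured by group, with the mean as a black line and values of 0 as triangles at the bottom. Csf1r lies near 117 FPKM, 3 genes lie between 0.99 and 5.08 FPKM, and 6 lie under the dashed limit of 1 FPKM in every profile.

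The near-zero genes showed most clearly what the computed columns do to low values. Each column numbered 3 adds 0.1 FPKM per row, so a gene with 4 rows gains 4 such constants. P2ry12 was between 0.57 and 0.60 FPKM in these columns, against at most 0.26 in a separate profile. Cx3cr1 was between 0.24 and 0.26 FPKM there, and Sall1, listed at 0 elsewhere, was 0.10 FPKM. For Fcrls the highest column numbered 3 was 11.0 times its highest separate profile, for Olfml3 5 times and for Siglech 4.6 times. For the kept genes this ratio was between 0.894 and 1.09.

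**Figure D2:**
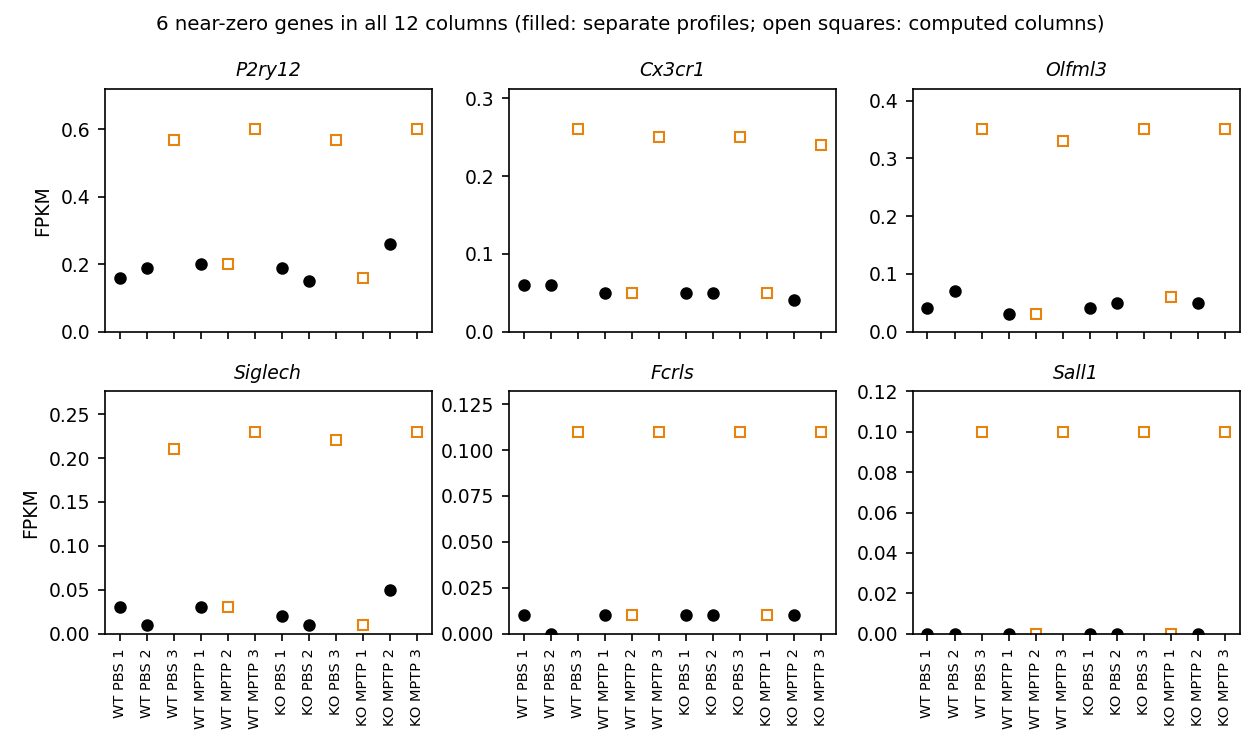
FPKM of the 6 near-zero genes in all 12 deposited columns, each panel with its own linear axis from 0, filled circles for separate profiles and open squares for computed columns. In every panel the 4 columns numbered 3 stand above all separate profiles, as for P2ry12 at 0.57 to 0.60 FPKM against 0.15 to 0.26.

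The labelled cell type was compared with its markers. Of 35 other homeostatic microglia genes 31 were found, with a median of 11.3 FPKM, and 10 of them were under 1 FPKM in all 6 profiles. Among the high ones were Cst3, a protease inhibitor gene, at 252 ± 13.1 FPKM and Trem2, a lipid-sensing receptor gene, at 127 ± 7.42 (SD, n = 6 profiles). The lowest were Slco2b1, an anion transporter gene, and Bank1, at 0.0033 and 0.0017 FPKM on average. Cst3 and Trem2 are also expressed by other macrophages.

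Of 18 genes of the macrophage lineage 17 were found, and 0 of the 17 were under 1 FPKM. Lyz2 (lysozyme) was at 1095 FPKM, Cd68 at 479 and the adaptor gene Tyrobp at 433, and the lowest were Aif1 at 7.87 and Runx1 at 7.36. Spi1, which encodes PU.1, was at 69.3 FPKM and Irf8, a lineage factor gene, at 36.01. The summed level of the 17 genes was between 3211 and 3311 FPKM in WT profiles and between 2906 and 3163 in KO profiles. Over all genes the sum also reached lower in KO, at 388861 to 409278 FPKM against 401733 to 425554 in WT. For KO against WT over 6 profiles, 0 of the 17 genes were called. The 20 disease-associated microglia genes lay at a median of 214 FPKM, against 0.122 FPKM for the 10 homeostatic genes and 1.03 FPKM for all genes. They ranged from Axl at 0.023 FPKM to Spp1 at 3192 FPKM on average. Trem2 stands both in this list and among the other homeostatic genes. Whether these levels mark a disease-associated state of microglia was not tested. Of the 5 members named above as telling microglia from other macrophages, P2ry12, Siglech, Fcrls and Sall1 were near or at 0, and Tmem119 was kept at 2.02 FPKM. That is percentile 54.4 of all genes, of which 48.7% were under 1 FPKM in all 6 profiles. Tmem119 was under 5 FPKM in every profile.

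Markers of other macrophages and blood cells gave a mixed picture. Of 6 border macrophage markers found, Pf4 was at 191 FPKM, Mrc1 at 158 and F13a1 at 29.97, Ms4a7 was at 8.43 and Lyve1 at 0.12. Their summed level was between 401 and 415 FPKM in WT profiles and between 357 and 400 in KO profiles. As given above, the sum over all genes also reached lower in KO. For KO against WT over 6 profiles, 5 of these markers were tested and 0 were called. Among monocyte markers the chitinase-like gene Chil3 was at 366 FPKM, whereas the other 6, Ccr2 and Plac8 included, were under 1 FPKM. Lymphocyte markers summed to at most 0.07 FPKM, and neuron markers, of which 2 of 6 were found, to at most 0.03 FPKM. Syt1 of neurons and Cdh5 of vessels were listed at 0. The part of these cell types in the levels of the homeostatic genes was not tested, and in bulk samples fewer cells of a type and less RNA per cell cannot be told apart.

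**Figure D3:**
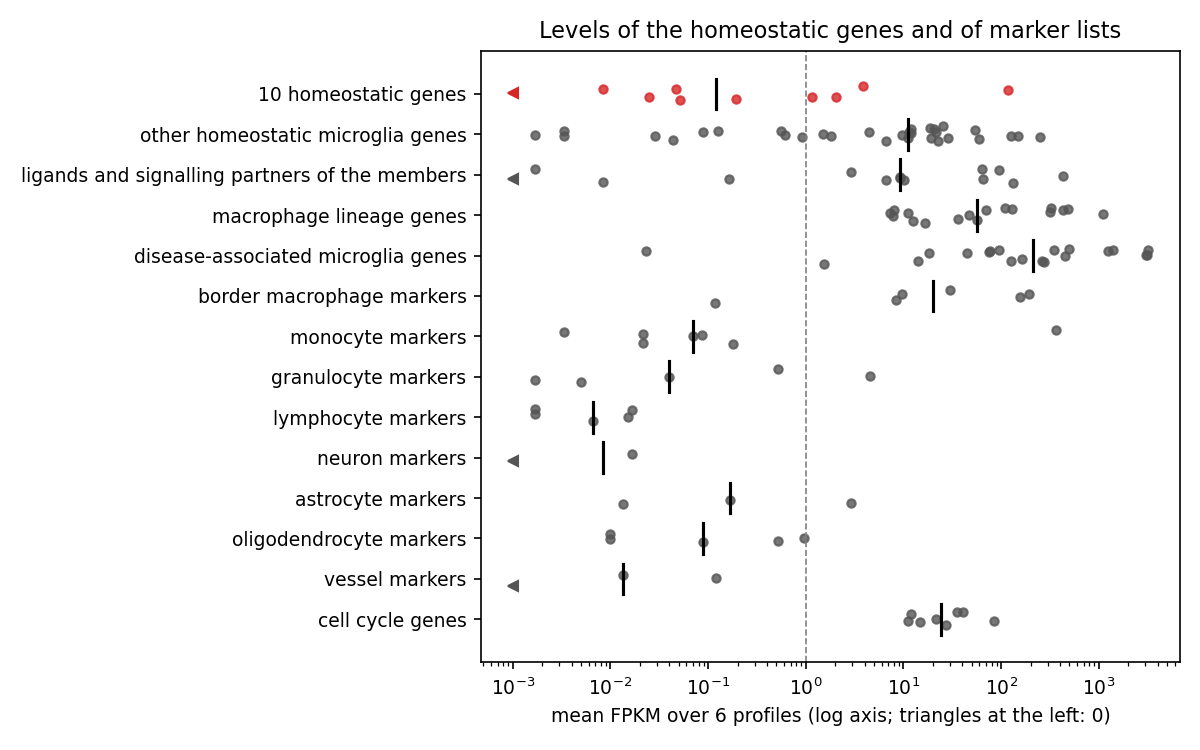
Mean FPKM over 6 profiles (log axis) of the 10 homeostatic genes, in red, and of the other gene lists, in grey, with 1 point per gene, the list median as a black bar and values of 0 as triangles at the left. The homeostatic genes have a median of 0.122 FPKM, against 56.0 for macrophage lineage genes and 214 for disease-associated microglia genes.

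Ligands and signalling partners of the set were partly present. Csf1, a ligand of the Csf1r receptor, was at 94.8 ± 4.86 FPKM (SD, n = 6 profiles), whereas its other ligand gene Il34 was at 0.16 FPKM. Cx3cl1, which encodes the Cx3cr1 ligand, was listed at 0 in all 6 profiles. Tgfb1 was at 64.2 FPKM and its receptor genes Tgfbr1 and Tgfbr2 at 6.65 and 9.32, with the signal transducers Smad2, Smad3 and Smad4 at 9.11, 2.88 and 10.1 FPKM. Tgfb2 and Tgfb3 had means of 0.0083 and 0.0017 FPKM. Gnai2, a G protein subunit gene through which P2ry12 signals, was at 133 FPKM.

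The first comparison addressed how control microglia respond to MPTP. None of the 4 kept genes was called, and the data leave room for changes in either direction. The scale of log2(FPKM + 1) used here understates the change of low genes such as P2ry13. WT MPTP 1 stood above both WT PBS profiles for Csf1r, Tmem119 and P2ry13 and below both for Gpr34. The difference on the log2(FPKM + 1) scale was 0.02 for Csf1r (95% interval −0.15 to 0.19), 0.17 for P2ry13 (−0.05 to 0.39), 0.16 for Tmem119 (−0.06 to 0.37) and −0.22 for Gpr34 (−0.52 to 0.09). The adjusted p was 1 for each (limma with Benjamini-Hochberg adjustment over 10636 genes), and 0.254% of all genes tested were called. The value of Gpr34 rested on WT PBS 1: with the profile of KO PBS 2 counted as KO PBS, it was −0.03 without WT PBS 1 and −0.40 without WT PBS 2. Limits are that WT MPTP had 1 separate profile, and that its spread was assumed to be that of the WT PBS pair.

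The same question in deficient microglia rested on KO MPTP 2 and KO PBS 1, and again 0 of 4 genes were called. Csf1r was higher by 0.11 in KO MPTP 2 (95% interval −0.09 to 0.31), P2ry13 by 0.18 (−0.08 to 0.43), Tmem119 by 0.12 (−0.13 to 0.36) and Gpr34 by 0.04 (−0.31 to 0.40). The median of all genes tested was also above 0, at 0.09, and moved to −0.01 with trimmed-mean (TMM) rescaling. Under that rescaling the differences of Csf1r and Gpr34 were −0.0047 and −0.048. Adjusted p-values were between 0.62 and 0.91 (limma), against 0.291% of genes called.

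Csf1r, Tmem119 and P2ry13 were higher in the MPTP profile than in both PBS profiles of their genotype, in WT and in KO, if KO PBS 2 is read as PBS. Of the 10636 genes tested, 33% showed the same order, so 3 of 4 genes is a small count beside a common order. In WT alone 50.1% of genes had the MPTP profile above both PBS profiles, and in KO 69.8%. Interaction values, which ask whether the MPTP difference differed between genotypes, were 0.09 for Csf1r, 0.26 for Gpr34, −0.04 for Tmem119 and 0.0085 for P2ry13. That of Gpr34 also rested on WT PBS 1, at 0.08 without it and 0.45 without WT PBS 2 (KO PBS 2 counted as KO PBS). Their adjusted p was 1.00 each (limma), 0 of 4 were called, and 0.0752% of genes were called.

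The deficiency without the toxin was addressed by KO PBS 1 against the WT PBS pair. The differences were −0.09 for Csf1r (95% interval −0.26 to 0.08), −0.23 for Gpr34 (−0.54 to 0.08), −0.05 for Tmem119 (−0.26 to 0.17) and −0.08 for P2ry13 (−0.30 to 0.14). The median of all genes tested was −0.06. None of the 4 was called, with adjusted p-values between 0.91 and 0.95 (limma), and 0.226% of genes were called. As under MPTP, Gpr34 rested on WT PBS 1, since with KO PBS 2 counted as KO PBS its value was −0.06 without that profile and −0.43 without WT PBS 2.

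Under MPTP, KO MPTP 2 and WT MPTP 1 differed by 0.0037 for Csf1r (95% interval −0.19 to 0.20), 0.02 for Gpr34 (−0.33 to 0.38), −0.09 for Tmem119 (−0.33 to 0.16) and −0.07 for P2ry13 (−0.33 to 0.18). Adjusted p-values were 1 (limma), and 0.132% of genes were called. Both groups held 1 separate profile. The split of all called genes into higher and lower moved with the scaling. It was 7 and 7 here, against 33 and 10 with TMM rescaling and 2 and 5 with quantile normalization. For MPTP in KO it was 23 and 8, against 35 and 22 with TMM and 3 and 5 with quantile normalization, and for the interaction 8 and 0, against 30 and 6 with TMM.

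All 6 profiles could be used for genotype alone, since the profile of unknown treatment is KO under both of its labels. Csf1r averaged 120 ± 1.16 FPKM over WT profiles and 115 ± 5.97 FPKM over KO profiles (SD, n = 3 each), a log2 difference of −0.07 ± 0.05 (SE; 95% interval −0.18 to 0.05). For Gpr34 the means were 4.13 ± 0.821 and 3.58 ± 0.0985 FPKM, a difference of −0.15 ± 0.09 (SE; −0.34 to 0.03), which was −0.03 without WT PBS 1. Tmem119 and P2ry13 differed by −0.04 (−0.19 to 0.11) and −0.07 (−0.23 to 0.09). WT and KO profiles overlapped for each of the 10 genes, and 8.01% of genes tested did not overlap. The adjusted p was 1.00 for each kept gene (limma), 0 of 4 were called, and 0.0752% of genes were called. That background was 8 genes, against 0 with quantile normalization (limma, 364 at an unadjusted p under 0.05), 1 with TMM rescaling, 1 without WT PBS 2 or KO MPTP 2, 17 without KO PBS 1, 26 without KO PBS 2, 36 without WT PBS 1 and 50 without WT MPTP 1. Over all 6 comparisons 0 of 4 kept genes had an unadjusted p under 0.05, against 2.69% to 9.24% of all genes tested, so a count of 0 is near the background.

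**Figure D4:**
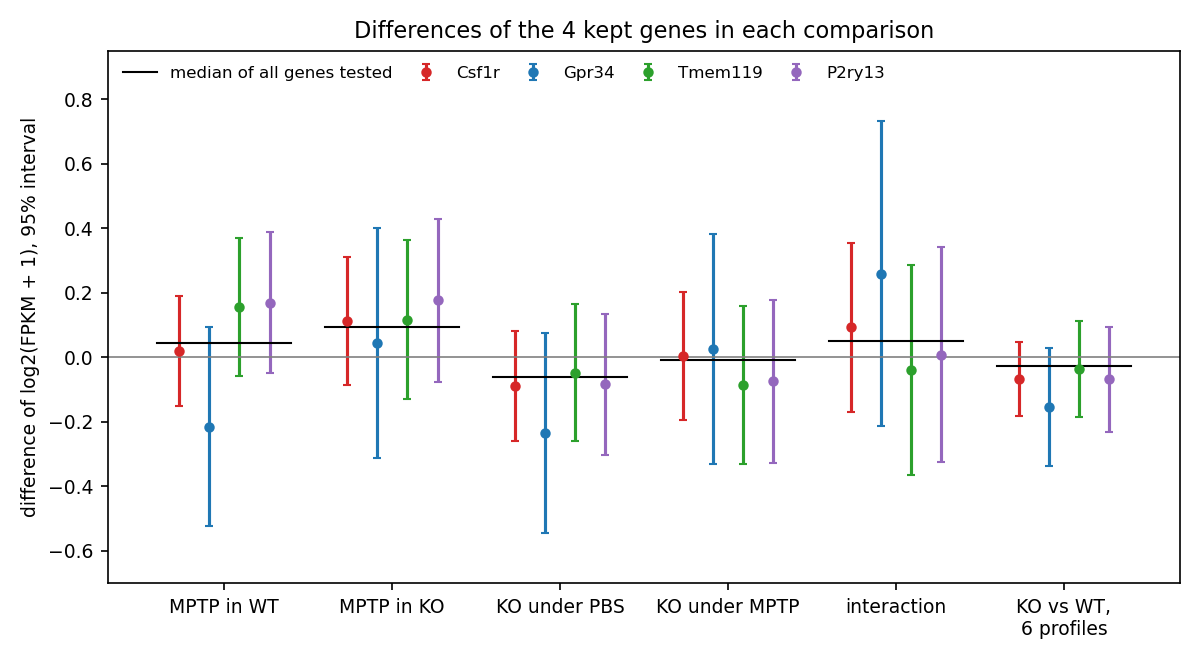
Difference of log2(FPKM + 1) with its 95% interval for the 4 kept genes in each of 6 comparisons, with the median of all 10636 genes tested as a black bar. Every interval spans 0, and the widest is that of Gpr34 in the interaction, from −0.21 to 0.73.

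The near-zero genes were too low for the fit and were compared between genotypes by an exact permutation test over profiles. The mean of P2ry12 was 0.183 FPKM in WT and 0.20 in KO, and that of Cx3cr1 was 0.0567 and 0.0467. Two-sided p-values of the exact permutation test were 0.90 for P2ry12, 0.30 for Cx3cr1 and 1.00 for Siglech, Fcrls and Olfml3 (n = 3 against 3), and all 5 were 1.00 after Benjamini-Hochberg adjustment. A comparison of 3 against 3 cannot give a p below 0.10. Sall1 had no spread to test.

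P2ry12 has 4 rows in the table, and 2 of them split by genotype while the sum did not. Row 2 was 0.11, 0.19 and 0.10 FPKM in the WT profiles and 0.05, 0 and 0 in KO PBS 1, KO PBS 2 and KO MPTP 2. Row 1 was listed at 0 in the 3 WT profiles and was 0.07, 0.05 and 0.26 FPKM in the KO profiles. Each gave p = 0.10 in a two-sided exact permutation test, the smallest that 3 against 3 allows, and 0.70 after adjustment over 14 rows of the set. Of 20997 single rows with a mean between 0.02 and 0.2 FPKM, 7.11% had WT and KO profiles that did not overlap. What a row stands for is not given in the sources used here. Both rows were picked after their values were seen.

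No gene of the other lists that were tested was called. In each of the 6 comparisons 0 of 21 other homeostatic genes, 0 of 10 ligands and partners, 0 of 17 macrophage lineage genes and 0 of 19 disease-associated genes were called in either direction. For KO against WT over 6 profiles, the median difference was −0.07 over the 4 kept genes, −0.03 over the other homeostatic genes and −0.08 over the disease-associated genes. The median over all genes tested was −0.03. Under MPTP in KO, the medians were 0.11, 0.10 and 0.06, beside 0.09 over all genes.

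Genes whose profile was most like each kept gene were named by the highest Pearson correlation of log2(FPKM + 1) over the 6 profiles. For Csf1r they were Sfxn3, Capn1 and Ppp2r5c, with r between 0.993 and 0.997, and for Gpr34 they were Pnrc1, Bhlhe40 and Acsl3, with r between 0.992 and 0.996. Tmem119 was followed most closely by Polr3k, Psma1 and Ybx1, with r between 0.992 and 0.998, and P2ry13 by Osbpl9, Cd300lg and Naa35, with r between 0.99 and 0.998. Of 10635 genes compared, 552 had r above 0.9 with Csf1r, 381 with Tmem119, 360 with P2ry13 and 98 with Gpr34. The points share the scaling of each profile. For Gpr34 the correlations rest mostly on WT PBS 1, at 5.08 FPKM against 3.50 to 3.71 in the other profiles.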

How the data were processed

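The authors deposited 1 table of 67355 rows and 12 columns. Per the submitters' processing notes, which assign no steps, the tools were CASAVA 1.5, Bowtie 0.12.7, TopHat and Cufflinks on mm9. The deposited values, given to 2 decimals, were read as FPKM, the output unit of Cufflinks, since the header is silent on it. Depth is unknown. Rows were summed per symbol after the trailing number was removed, and 1 row with text in a cell was left out. Columns computed from others were recognised within 0.0101 FPKM for multiples and 0.00995 FPKM for means.

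limma 3.58.1 (R 4.3.3) with a mean-variance trend was run on log2(FPKM + 1), which understates the change of low genes. Genes needed 1 FPKM in 3 of the 6 profiles, which left 10636. Treatment comparisons used 5 profiles with KO PBS 2 left out (1 residual and 9.09 prior degrees of freedom), and the genotype comparison all 6 (4 and 13.7). Calls needed an adjusted p under 0.05. The fits were also run on simulated data with the same spread for all genes and independent profiles, a simpler setting than these data. Gene symbols came from the files, and older list names were matched through RefSeq synonyms. Overlapping genes were read from GENCODE M21 by symbol. Named genes are the 10 members, the 3 highest and 2 lowest of each list, others picked after their values were seen, and the 3 most alike per kept gene. One gene that this rule names is not reported here. Members and lists were chosen with earlier results of these data known. Alternatives were other pseudocounts, filters, scalings and treatments of the columns.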

Additional observations from a re-analysis of the deposited data

How the results depend on the processing

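The count of 6 near-zero genes was also 6 with the highest row of each symbol, with all 12 columns, and without each profile in turn. It was 5 at a limit of 0.1 FPKM and 8 at a limit of 5 FPKM. The count of kept genes called was 0 in each of the 6 comparisons under other pseudocounts, filters (only Csf1r was tested at 5 FPKM) and scalings. In the 5 comparisons with treatment it was also 0 under either treatment for KO PBS 2, with the replicate number as a block (replicate block, KO PBS 2 counted as KO PBS) and without WT PBS 1 or WT PBS 2. It was 0 there too with KO PBS 2 in place of KO PBS 1 or of KO MPTP 2, chosen after seeing the data. In the genotype comparison, where no block was run, it was 0 without each profile in turn. Same-numbered profiles labelled PBS had correlated deviations (r = 0.227 over 10636 genes), and the labels pair none. That correlation uses KO PBS 2, whose treatment is unknown. With all 12 columns taken as libraries, 1 gene was called for MPTP in WT (Tmem119, adjusted p = 0.0435), 1 for KO under PBS (Csf1r, 0.0220) and 1 for KO against WT (Csf1r, 0.0479; all limma), since that fit counts computed columns as replicates. Leaving out WT MPTP 1 was not run for treatment comparisons, as no other separate profile carries that label.

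These differences changed sign, each uncalled in both settings. With TMM rescaling, Csf1r was −0.016 for MPTP in WT, −0.0047 for MPTP in KO and −0.013 for KO under MPTP, Gpr34 was −0.048 for MPTP in KO, and P2ry13 was −0.033 for the interaction. With quantile normalization, Csf1r was −0.039 for MPTP in WT, Gpr34 was −0.063 for MPTP in KO and −0.0070 for KO under MPTP, Tmem119 was 0.00052 for KO under PBS, and P2ry13 was −0.053 for the interaction. With 12 columns, Gpr34 and Csf1r were −0.0052 and −0.065 for KO under MPTP, and P2ry13 was −0.080 for the interaction. With KO PBS 2 as KO MPTP these 3 values were −0.0050, −0.066 and −0.062. The interaction of P2ry13 was −0.0094 with KO PBS 2 as KO PBS, and −0.064 when WT PBS 1 was also left out. With KO PBS 2 in place of KO PBS 1, Tmem119 was 0.022 for KO under PBS and P2ry13 was −0.027 for the interaction. With KO PBS 2 in place of KO MPTP 2, Gpr34 was −0.016 for MPTP in KO and −0.035 for KO under MPTP, Csf1r was −0.027, −0.14 and −0.047 for MPTP in KO, KO under MPTP and the interaction, and P2ry13 was −0.13 for the interaction. Tmem119 was 0.015 for KO against WT without WT MPTP 1, the highest of a range that reached −0.069 when each profile was left out in turn. The cause was not tested.

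Calls over all genes were 27 for MPTP in WT (0 to 44 under the alternatives, 2150 with 12 columns), 31 for MPTP in KO (0 to 57), 24 for KO under PBS (0 to 40, 1321 with 12 columns), 14 for KO under MPTP (0 to 43, 1539 with 12 columns) and 8 for the interaction (0 to 36, 127 with 12 columns). For KO against WT there were 8 (0 to 50, 1023 with 12 columns). Without the filter 0 genes were called in each (limma, between 882 and 2896 of 20435 at an unadjusted p under 0.05).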

Other observations

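Cell cycle genes were present in profiles labelled as primary microglia. All 8 of the list passed the filter, with a median of 24.4 FPKM. Pcna, a replication clamp gene, was at 85.2 ± 2.82 FPKM, Ccnb1 (cyclin B1) at 40.5 ± 2.93 and Top2a at 35.1 ± 1.62, and the lowest were Mcm2 at 11.9 and Aurkb at 11.2 (SD, n = 6 profiles). Their summed level was between 238 and 250 FPKM in WT profiles and between 237 and 270 in KO profiles, and 0 of 8 were called in any of the 6 comparisons (limma).

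Tgfb1, the growth factor gene of the pathway that maintains the homeostatic set, was 71.2, 73.9 and 65.2 FPKM in WT PBS 1, WT PBS 2 and WT MPTP 1. It was 60.1, 58.8 and 56.0 FPKM in KO PBS 1, KO PBS 2 and KO MPTP 2. All 3 KO profiles lay below all 3 WT profiles, an order or its reverse that 8.01% of genes tested showed. The log2 difference was −0.26 ± 0.06 (SE; limma, unadjusted p = 0.000285), and it was not called after adjustment over all genes (adjusted p = 0.126). Tgfb1 was picked after its values were seen.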
